A study of Mus musculus with 14 samples.

Results

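Green cones that had passed the cell sorter once were compared with green cones that had passed it again, to describe which elements of open chromatin were weaker or stronger with the second sort. The comparison took in 4 of the 14 libraries of the series, 2 single-sorted (replicates 1 and 2) and 2 double-sorted (replicates 3 and 4), chosen by the purification stated in their labels. All 4 came from C57BL/6 mice of 8 weeks with the Opn1mw-GFP transgene, whose green fluorescent protein follows the gene of the medium-wavelength cone opsin. Another 2 ATAC-seq libraries each of single-sorted rods (Nrl-eGFP) and of single-sorted Nrl-/- photoreceptors (Nrl-eGFP;NrlKO), also C57BL/6 of 8 weeks, served as reference. Nrl-/- photoreceptors are cone-like cells that form where rods would be, and they are used here as a reference without rods. By the study's list of samples, retinas of several mice were pooled for a sort, fewer cells went into the double-sorted libraries, and each double-sorted pool included a female mouse. Sort, cell number and sex of the pool therefore cannot be told apart. That list names the Nrl-/- line for single-sorted replicate 1 where the deposited label gives Opn1mw-GFP.

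In ATAC-seq a transposase cuts accessible DNA and inserts sequencing adapters, so that reads pile up at promoters and enhancers in use. Rods make up most cells of the mouse retina and cones are rare. Rods and cones use only partly separate sets of phototransduction proteins. In rods the factors NRL and NR2E3 switch on rod genes and hold cone genes down, together with CRX, which acts in both. The study sorted green cones again to raise their purity. In a bulk library, fewer cells of a type and less open chromatin per cell cannot be told apart.

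The sequences of 6 elements stand here because the text below returns to them, 3 with lower and 3 with higher levels in double-sorted green cones. Each is the 200 bp element on the plus strand of GRCm38 (RefSeq). Capitals mark matches on either strand to the motif of CRX, which is CTAATCC, or to the E-box of neural basic helix-loop-helix factors, which is CAGATG. They also mark the homeodomain sequence TAATTA, the nuclear receptor half-site AGGTCA and the GATA factor motif AGATAA. The Gnb1, Nrl and Casz1 elements lie in introns of these genes, and the other 3 are intergenic. The Rxrg element held none of the motifs searched.
Gnb1 element, chr4:155522426-155522625: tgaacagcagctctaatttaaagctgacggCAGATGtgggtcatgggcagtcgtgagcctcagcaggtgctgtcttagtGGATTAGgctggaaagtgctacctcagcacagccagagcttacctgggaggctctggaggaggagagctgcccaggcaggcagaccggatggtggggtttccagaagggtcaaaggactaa
Nrl element, chr14:55521184-55521383: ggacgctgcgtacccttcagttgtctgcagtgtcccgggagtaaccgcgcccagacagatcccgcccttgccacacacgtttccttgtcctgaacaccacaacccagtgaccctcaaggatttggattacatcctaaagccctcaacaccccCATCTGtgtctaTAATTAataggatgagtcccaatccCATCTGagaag
Casz1 element, chr4:148830412-148830611: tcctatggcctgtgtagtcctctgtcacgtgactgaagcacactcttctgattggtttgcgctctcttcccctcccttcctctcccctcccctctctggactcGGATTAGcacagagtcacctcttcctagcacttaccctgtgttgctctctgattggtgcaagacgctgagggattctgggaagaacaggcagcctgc
Tram1 element, chr1:13560805-13561004: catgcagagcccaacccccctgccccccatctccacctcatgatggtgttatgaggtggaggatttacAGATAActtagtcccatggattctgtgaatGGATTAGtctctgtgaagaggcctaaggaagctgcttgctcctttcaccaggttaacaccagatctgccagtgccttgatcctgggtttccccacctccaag
A530021J07Rik element, chr7:83140261-83140460: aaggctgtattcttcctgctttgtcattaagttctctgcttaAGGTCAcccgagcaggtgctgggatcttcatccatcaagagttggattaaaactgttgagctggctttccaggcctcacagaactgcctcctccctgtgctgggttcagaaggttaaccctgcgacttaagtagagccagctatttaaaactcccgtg
Rxrg element, chr1:167584018-167584217: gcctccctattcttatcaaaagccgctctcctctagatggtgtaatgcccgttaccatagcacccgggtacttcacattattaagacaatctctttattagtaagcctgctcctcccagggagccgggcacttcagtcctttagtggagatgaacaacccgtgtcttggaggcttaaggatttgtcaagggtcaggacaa

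The authors counted reads in 53204 elements of 200 bp. Single-sorted replicates 1 and 2 had 3940065 and 2131701 counts and double-sorted replicates 3 and 4 had 1263753 and 1062403, so that the double-sorted ones were the shallower. Levels below are CPM (counts in an element relative to the total of the library) after scaling by trimmed means of M values (TMM). The limit that a count of 0 allows, 3 counts, corresponded to 0.733 and 1.37 CPM in the single-sorted and to 2.33 and 2.70 CPM in the double-sorted libraries. Of the non-zero counts, 62.6% to 78.2% were even in the 4 libraries, so a step of 2 counts was the usual one. The limits take each count as separate, so they are likely too low, and they cover counting error only.

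The 2 double-sorted libraries differed from each other more than from the single-sorted ones. Of all elements, 32.9% lay at least 2-fold apart (CPM + 1) between double-sorted replicates 3 and 4, against 8.47% between single-sorted replicates 1 and 2. Between a single-sorted and a double-sorted library the share was 18.5% to 28.0%. These shares were taken at unlike depths. The double-sorted libraries were the shallower ones, so the share between them includes the most counting error. The biological coefficient of variation was 28.3% within the double-sorted pair, 14.3% within the single-sorted pair, 8.94% in rods and 12.3% in Nrl-/- photoreceptors. The spread that any difference between the sorts has to exceed was thus set mainly by the double-sorted pair.

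Against this spread no single element passed the test. Of 40884 elements tested with edgeR's quasi-likelihood fit against a log2 fold change of 1, 0 were lower (0%) and 0 were higher (0%) in double-sorted green cones at an adjusted p under 0.1. Before adjustment 362 elements were lower and 143 higher at p under 0.05, and DESeq2 called 0 in either direction, with 86 and 5 at an unadjusted p under 0.05. Without double-sorted replicate 4, edgeR called 718 lower and 58 higher, and without replicate 3 it called 9 lower and 0 higher. In these fits the lone double-sorted library was taken to vary like the single-sorted pair. With 2 libraries against 2, an exact two-sided permutation test of a single value cannot go below p = 0.333.

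The groups did not overlap, with both double-sorted libraries below both single-sorted ones, at 11193 of the 53204 elements (21%). They lay above at 9044 (17%). A stricter set was therefore described beside the test. It holds elements whose lowest library in the higher group had at least 5 CPM and at least 2 times the highest library of the other group. This gave 805 elements lower (1.51%) and 423 higher (0.795%) in double-sorted green cones. With processed reads as library sizes, which raised the median of all elements to 0.45 on the log2 scale, the sets were 211 lower and 816 higher, so the balance between them depends on the scaling. At the edge of this rule, an element near Sdhaf1 was just inside, with 19.3 and 18.7 CPM after the single sort against 9.33 and 8.98 CPM. An element near Vamp9 was just outside. On the side of higher levels, elements near Npffr1 and Them7 were just inside and just outside. The 2 sets were chosen on this contrast, so their own size of change is no finding.

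**Figure D1:**
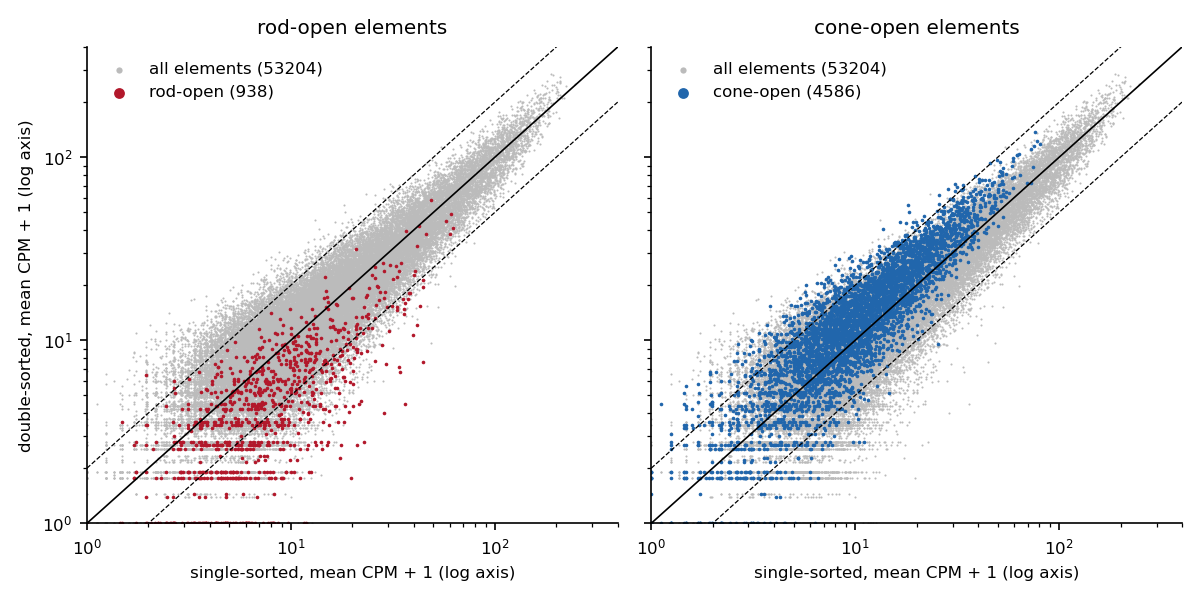
Mean CPM + 1 of each of the 53204 elements in single-sorted (x axis) and double-sorted (y axis) green cones, 2 libraries each, on log axes. The solid line marks equal levels and the dashed lines a 2-fold difference, and the 938 rod-open elements (red) lie mostly below the solid line and the 4586 cone-open elements (blue) mostly above it.

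To ask what the weaker and stronger elements were, classes were set from the rod and Nrl-/- libraries alone. An element was named rod-open where both rod libraries had at least 5 CPM and at least 4 times the higher Nrl-/- library, and cone-open where the reverse held. Rod-open elements were lower in double-sorted green cones. The median log2 difference (mean CPM + 1, double minus single) of all 938 was -0.78, against -0.02 over all elements. Both double-sorted libraries were below both single-sorted ones at 514 of the 938 (54.8%, against 21% of all elements) and above at 22. Of the 938, 111 were in the 2-fold set of lower elements and 0 in the set of higher ones. The filter on low counts kept 460 of the 938, so all 938 were described here without it.

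Summed over the 938 rod-open elements, single-sorted green cones held 9298 and 7376 CPM, and double-sorted green cones 4385 and 4766 CPM. The sums in rods were 22930 and 24083 CPM, and Nrl-/- cells had 2675 and 2951 CPM. The double-sorted libraries were thus below both single-sorted ones and above both Nrl-/- libraries. As a share of the mean rod level, single-sorted green cones had 39.6% and 31.4%, double-sorted ones 18.7% and 20.3%, and Nrl-/- cells 11.4% and 12.6%. In the 173 rod-open elements with at most 1 CPM in both Nrl-/- libraries, single-sorted green cones had 35.1% and 26.6%, double-sorted ones 13.6% and 14.3%, and Nrl-/- cells 2.54% and 3.52%.

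The difference at rod-open elements did not rest on 1 library. Against the mean of the single-sorted pair, their median was -0.96 in double-sorted replicate 3 and -0.81 in replicate 4. Set against single-sorted replicate 1 alone the median was -0.93, and against replicate 2 alone -0.57. With all 4 libraries thinned to the smallest total it was -0.79.

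Cone-open elements went the other way, by less and less evenly. The median log2 difference of the 4586 was 0.32, and 1405 were above in both double-sorted libraries (30.6%, against 17% of all elements) while 347 were below. Summed, they held 50922 and 58009 CPM after the single sort and 81631 and 62258 CPM after the double sort, while Nrl-/- cells held 72644 and 75086 CPM and rods 5570 and 6039 CPM. Both double-sorted sums were above both single-sorted ones. The median was 0.47 in double-sorted replicate 3 and 0.10 in replicate 4, so that its size was set mainly by replicate 3.

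**Figure D2:**
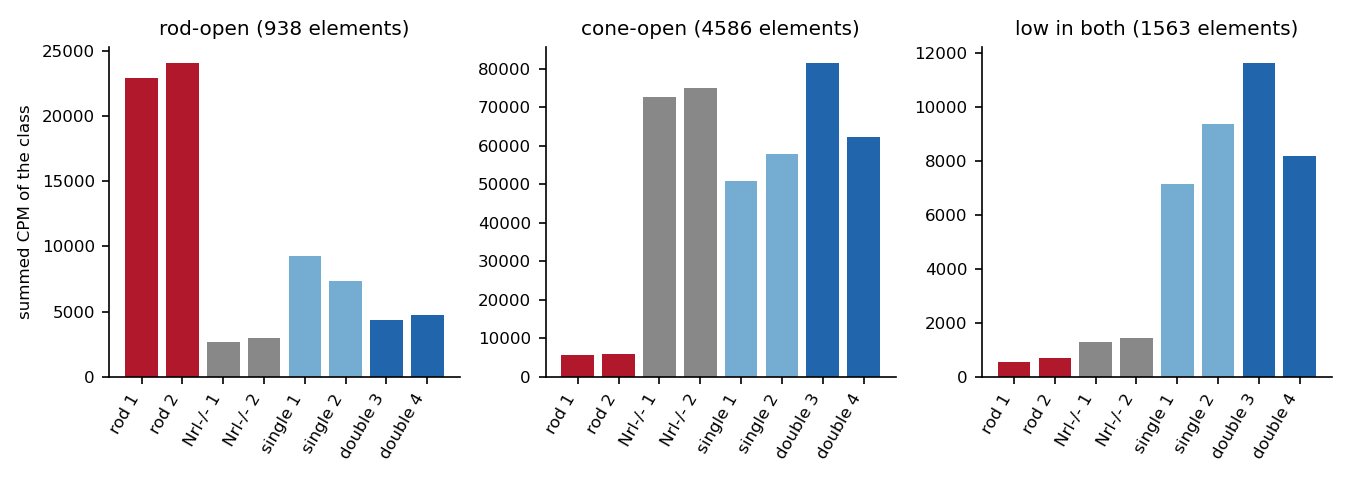
Summed CPM of 3 classes of elements in each of the 8 ATAC-seq libraries, 1 bar a library. Rod-open elements hold 9298 and 7376 CPM in single-sorted and 4385 and 4766 CPM in double-sorted green cones, and the elements low in both references, a class set by its low reference levels, overlap between the sorts.

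Elements open to a like degree in both references (20945 elements with at least 5 CPM in all 4 libraries and group means within 2-fold) had a median of -0.08. Another 1563 elements were low in both, under 2 CPM in all 4 reference libraries. Their sums were 7160 and 9365 CPM after the single sort and 11653 and 8181 CPM after the double sort, against 570 to 1446 CPM in the references. Of these elements 41 were in neither green cone peak list, so nearly all had been a green cone peak, and with low reference levels set by the class rule the gap to the references follows from the choice of members. Their sums overlapped between the sorts.

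Promoters of rod phototransduction genes had lower levels in double-sorted green cones. The following values are CPM, with single-sorted replicates 1 and 2 before double-sorted replicates 3 and 4. At the promoter of Gnat1, the rod transducin subunit (chr9:107679619-107679818), they were 42.5 and 27.8 against 1.55 and 5.39. The Gnat1 log2 difference of -3.39 (SE 0.58) had an edgeR p of 0.000481 before and 1.0 after adjustment. The level was lower in both double-sorted libraries, by 10.1-fold in the means, but on only 2 and 6 counts there. The log2 difference was -2.7 without double-sorted replicate 3 and -4.5 without replicate 4, so its size is uncertain. In rods the Gnat1 element had 126 and 112 CPM.

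Other rod genes of the named set were lower in the same sense, except for Sag. The promoter of Pde6b, a subunit of the rod phosphodiesterase, had 18.6 and 15.5 against 1.55 and 8.98 CPM. That of Cnga1, the rod channel subunit, had 18.1 and 10.9 against 4.66 and 5.39 CPM. At the promoter of Nr2e3 the groups nearly touched, at 24.4 and 10.9 against 6.22 and 10.8 CPM. The intron element of Nrl printed above had 43.0 and 31.0 against 17.1 and 17.1 CPM. Rods held 100.2 and 107 CPM there, and the Nrl-/- libraries, in which this gene is disrupted, held 0. Single-sorted replicate 1, which the study's list gives to the Nrl-/- line, thus held 43.0 CPM at an element that read 0 in Nrl-/- cells. Sag, rod arrestin, overlapped between the sorts, with 68.6 and 76.2 against 54.4 and 70.1 CPM. Its promoter was also open in Nrl-/- cells, at 77.0 and 67.9 CPM.

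**Figure D3:**
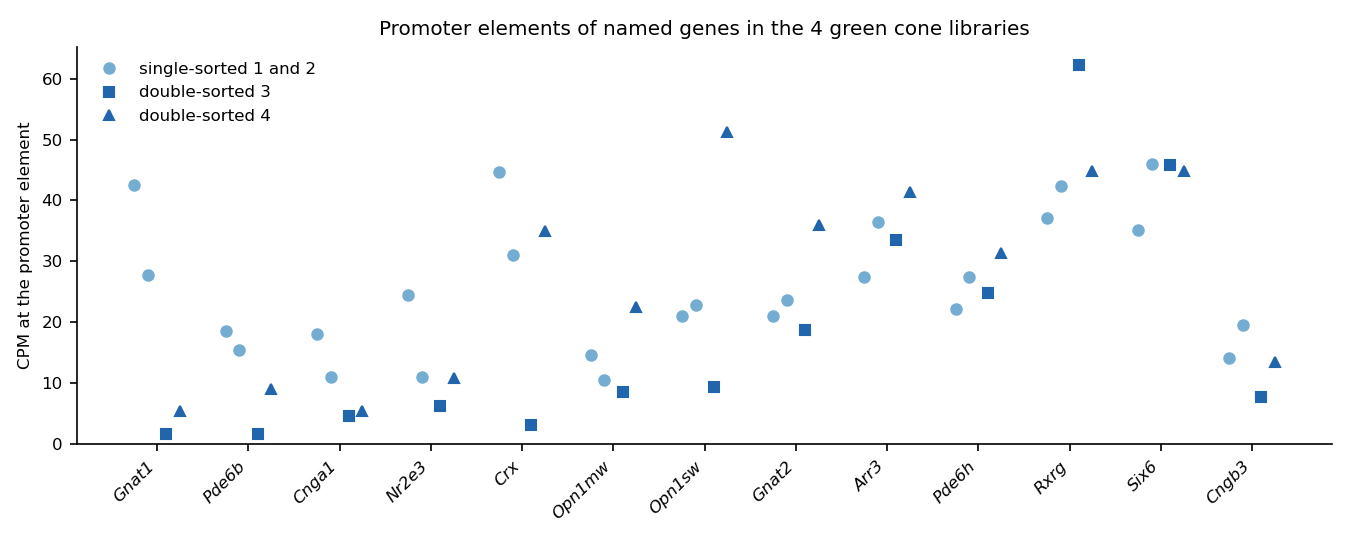
CPM at the promoter element of 13 genes (the element with the highest single-sorted mean where a gene has several) in each green cone library, on a linear axis. Points of double-sorted replicates 3 and 4 lie below both single-sorted points at Gnat1 and Cnga1, and on either side of them at Opn1mw and Opn1sw.

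The 10 elements with the lowest p among those lower without overlap were led by rod-open chromatin. The promoter of Tcp11, better known from the testis and not rod-open by the rule, had 51.8 and 43.3 against 9.33 and 8.09 CPM. The Gnb1 intron element printed above lies in the gene of a transducin beta subunit and had 30.3 and 25.1 against 1.55 and 4.49 CPM. The promoter of Kcnj14, a potassium channel gene, had 22.7 and 14.6 against 1.55 and 0 CPM. Of these 10, 6 were rod-open, against 1.76% of all elements, and all 10 had an adjusted p of 1.0 in edgeR. Elements near Dync1i2 (67395 bp away, in a Slc25a12 intron), Syne3, Mir5123 (in a B4galt1 intron) and Gm35135 had 0 counts in both double-sorted libraries. With 3 counts per library in place of 0 they were 4.38-, 4.33-, 4.64- and 4.45-fold lower. Most counts were even, so this floor is likely too low and the folds are not lower bounds.

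Prph2, Raly and Wapl were among the genes with 3 elements of the 2-fold lower set within 100 kb of their start site. Prph2 encodes peripherin 2, a protein of the outer segment disc rim. An element of this gene in the set, 17681 bp downstream of the start, had 24.4 and 17.3 against 1.55 and 5.39 CPM. Of the 11 Prph2 elements, 5 were lower without overlap and 0 higher, in a gene picked for its lower elements (against 21% and 17% of all elements). These 3 genes were chosen after their values were seen.

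At most of the cone genes named here the promoters overlapped between the sorts, with exceptions. The promoter of Opn1mw, the gene behind the reporter, had 14.6 and 10.5 against 8.55 and 22.5 CPM. That of Opn1sw, the short-wavelength opsin, had 21.0 and 22.8 against 9.33 and 51.2 CPM. The double-sorted libraries lay on either side of the single-sorted ones at both opsins. Gnat2, cone transducin, had 21.0 and 23.7 against 18.7 and 35.9 CPM at the more upstream of its 2 promoter elements. An element in a coding exon of Gnat2, 344 bp from the start, was instead lower without overlap, at 8.79 and 10.9 against 3.11 and 3.59 CPM. So was 1 of the promoter elements of Thrb, a thyroid hormone receptor of cones, at 14.2 and 8.66 against 3.89 and 4.49 CPM. Another Thrb promoter element was narrowly higher without overlap, at 10.5 and 5.02 against 10.9 and 10.8 CPM. The remaining promoter elements of Thrb overlapped between the sorts. Arr3 (cone arrestin), Pde6h and Six6 also overlapped between the sorts. The promoter of Cngb3, a cone channel subunit, had 14.2 and 19.6 against 7.77 and 13.5 CPM and was thus lower in both double-sorted libraries.

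Of the 8 elements of Rxrg, a retinoid receptor of cones, 2 were higher without overlap (25%, against 17% of all elements) and 0 lower. The Rxrg promoter had 37.1 and 42.4 against 62.2 and 44.9 CPM. The upstream element printed above was picked for its large difference within its gene list. It had 30.5 and 25.5 against 59.8 and 56.6 CPM, while Nrl-/- cells held 34.8 and 22.5 CPM and both rod libraries under 1 CPM. Its log2 difference was 1.03 (SE 0.30), with an adjusted p of 1.0 in edgeR.

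Crx, the regulator shared by rods and cones, showed how far the double-sorted libraries were apart. Its promoter had 44.7 and 31.0 CPM in single-sorted green cones, 3.11 CPM in double-sorted replicate 3 and 35.0 CPM in replicate 4. Replicate 3 was also the lower at Opn1sw and Opn1mw. Of the nuclear envelope genes, Lmna had 23.0 and 35.1 against 24.9 and 30.5 CPM and Lbr 122 and 140 against 183 and 108 CPM, both with overlap.

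The 10 elements with the lowest p among those higher without overlap are given next. None was rod-open, but that class made up only 1.76% of all elements, so that none among 10 is near the share of all. The Tram1 element printed above lies 29006 bp from that start site and had 1.95 and 2.74 against 15.6 and 16.2 CPM, a log2 difference of 2.75 (SE 0.59). The A530021J07Rik element printed above had 13.9 and 10.5 against 51.3 and 37.7 CPM. An intron element of Pcdh9, a protocadherin gene, had 1.95 and 0.912 against 14.0 and 8.98 CPM. An intergenic element 253548 bp from the start of Atp2b1, the nearest gene, had 7.57 and 6.39 against 28.0 and 27.0 CPM. An element near Ly6d had 7.32 and 8.21 against 34.2 and 24.2 CPM. In all of these both double-sorted libraries stood above both single-sorted ones, with an adjusted p of 1.0 in edgeR.

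Elements within 100 kb of the genes of 16 lists were then grouped by function, and those of rod genes were the lowest. For 25 rod phototransduction genes with 113 elements the median log2 difference was -0.57, with 54 lower and 9 higher without overlap. The 24 rod-open elements among them had a median of -1.47, and 18 were lower without overlap. This list also holds genes that are open in Nrl-/- cells, such as Sag. For rod transcription factors (67 elements) the median was -0.38, with 27 lower and 5 higher. The Casz1 element printed above, in a zinc finger gene of this list, had 15.6 and 22.8 against 3.11 and 3.59 CPM. Over all elements the median was -0.02, and 21% were lower and 17% higher. With processed reads as library sizes, which moved the median of all elements to 0.45, rod phototransduction stood at -0.20 and rod transcription factors at 0.01, both still below all elements.

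Cone lists stayed near the level of all elements. Cone phototransduction (91 elements) had a median of -0.03, with 15 lower and 12 higher. Cone transcription factors (69 elements) had 0.16, with 15 lower and 14 higher.

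Of the lists of other retinal cells, the 2 with the highest medians were those of glia and of horizontal cells. For Müller glia and astrocytes (46 elements) the median was 0.40, with 5 lower and 19 higher (against 21% and 17% of all elements). Without double-sorted replicate 3 this median was 0.25. Their summed level was 592 and 625 CPM in single-sorted green cones and 888 and 665 CPM in double-sorted ones, against 697 and 719 CPM in Nrl-/- cells. At the promoter of Vim, an intermediate filament gene of glia, the values were 2.2 and 3.65 against 8.55 and 7.19 CPM. An element near Hes1, a Notch target, had 18.3 and 14.6 against 39.6 and 27.9 CPM, and in Nrl-/- cells 33.9 and 44.0 CPM. Of the 46 elements, 9 were cone-open, and the part of glia in these values was not tested. Horizontal cells (16 elements, 8 of them cone-open) had a median of 0.50, which was 0.06 without double-sorted replicate 3, and 3 were lower and 3 higher (against 21% and 17% of all elements). Their summed levels were 251 and 268 against 396 and 281 CPM.

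Bipolar, amacrine and ganglion, microglia, endothelial and pigment epithelium lists had medians from -0.08 to 0.11. Constitutively expressed genes (66 elements) had a median of -0.20, and of the double-sorted libraries replicate 3 summed to 1244 CPM and replicate 4 to 1603 CPM. Immediate early and stress genes had a median of -0.03, with 32 lower (23.0%) and 23 higher (16.6%) of 139, close to the 21% and 17% of all elements.

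**Figure D4:**
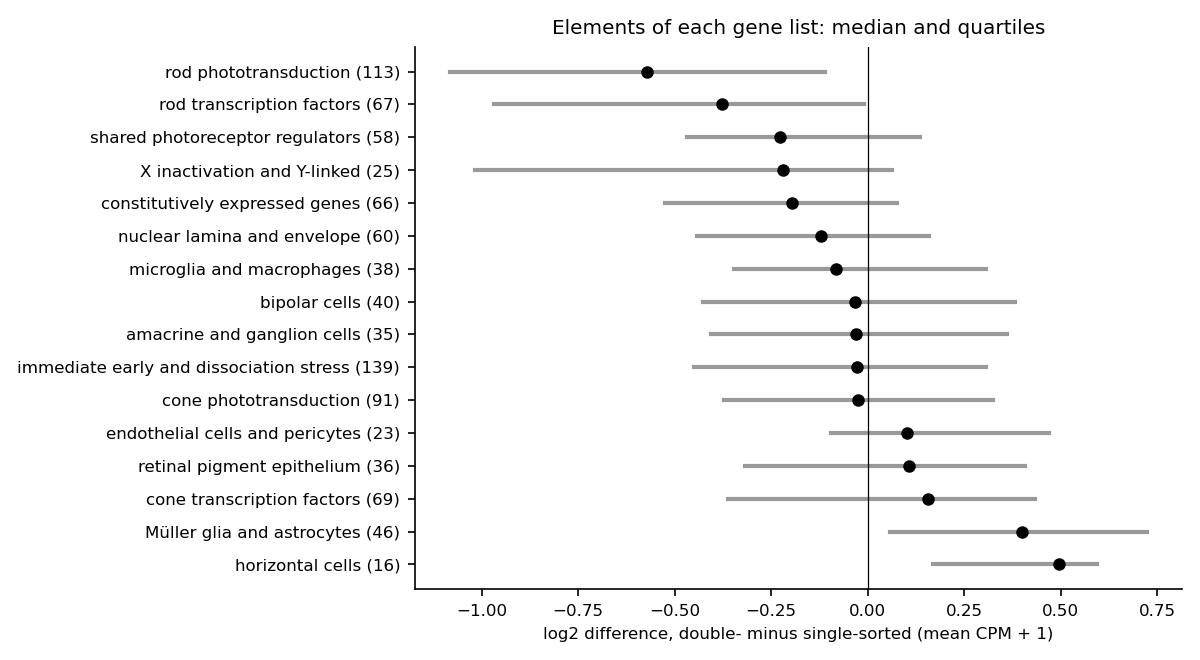
Log2 difference (double- minus single-sorted, mean CPM + 1) of the elements within 100 kb of the genes of 16 lists, with a point at the median, a bar from the lower to the upper quartile and the number of elements in brackets. Rod phototransduction lies at -0.57 and Müller glia and astrocytes at 0.40.

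The peak lists, called by the authors once per group, held 42685 peaks for single-sorted and 36015 for double-sorted green cones. Peaks were matched where the 200 bp windows round their summits shared at least 1 bp. Of the single-sorted peaks 10102 (23.7%) had no match in the double-sorted list, and of the double-sorted peaks 3422 (9.50%) had none in the single-sorted list. With the same number of peaks taken from each list by score, 5585 and 5554 had no match. Matched peaks pair up, so lists of equal length must leave near-equal numbers, and the difference between 10102 and 3422 restates the lengths of the lists. Peaks of 1 list were weaker than shared ones, with a median fold enrichment of 5.35 against 9.13 in the single-sorted list and 6.76 against 9.56 in the double-sorted list.

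The rod and Nrl-/- peak lists were matched to the unmatched peaks in the same way. A rod peak matched 40.9% of those unique to the single-sorted list and 9.61% of those unique to the double-sorted list, against 67.8% of the shared peaks of either list. A rod peak without an Nrl-/- peak matched 11.7% and 2.84%, against 1.27% of the shared peaks of the single-sorted list. Of the peaks unique to the double-sorted list, 59.1% matched neither reference list, against 34.6% of those unique to the single-sorted list. These are shares of single lists without replicates, and no test was made.

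Every listed peak had an element in the count table, which ties the lists to the counts. Elements in the single-sorted list only (10132) had a median log2 difference of -0.42, those in the double-sorted list only (3449) 0.60, and those in both (32562) 0.04. The lists were called on the same libraries, so these medians are a description. Of the 938 rod-open elements, 361 (38.5%) were in the single-sorted list only, 3 (0.32%) in the double-sorted list only, 180 in both and 394 in neither. Of the 1563 elements low in both references, 554 (35.4%) were in the single-sorted list only and 501 (32%) in the double-sorted list only. Just 41 of these 1563 were in neither list. Of all 53204 elements, 10132 were in the single-sorted list only and 3449 in the double-sorted list only.

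**Figure D5:**
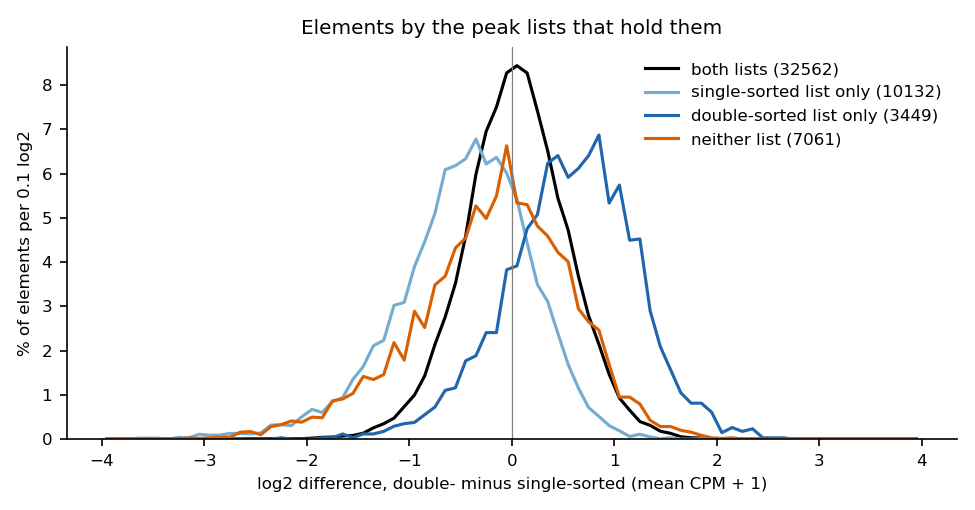
Share of elements (in %, per 0.1 on the log2 scale) by log2 difference between double- and single-sorted green cones, for elements in both peak lists, in 1 of them or in neither. Elements of the single-sorted list only centre at -0.42 and those of the double-sorted list only at 0.60.

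The 2-fold sets differed in place. Promoters, here 1000 bp upstream to 100 bp downstream of a start site, made up 26.6% of all elements, 18.0% of the lower set and 5.91% of the higher set. The median distance to a start site was 8.40 kb for all, 7.49 kb for the lower and 30.7 kb for the higher set. Both rod libraries exceeded both Nrl-/- libraries at 64.3% of the lower set, against 34.2% of all elements, and the reverse held at 77.8% of the higher set, against 41.6%. The higher set had a median of 3.53 CPM in single-sorted green cones against 9.50 CPM for all elements. The rule of the set favours low single-sorted levels, so this value is no finding.

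Motif content was searched on both strands in the 200 bp of each element. The nuclear receptor half-site AGGTCA was in 20% of the lower set, 14.9% of all elements and 36.7% of rod-open elements. The CRX motif CTAATCC was in 8.94% of the lower set, 10.9% of the higher set and 7.61% of all. The sequence TGANTCA, read by bZIP factors and able to overlap the MAF motif TGCTGAC, was in 8.57% of the lower set, 2.84% of the higher set and 6.28% of all. The CTCF motif was in 4.60%, 8.51% and 5.96%.

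On the sex chromosomes, the 901 elements of the X had a median log2 difference of -0.16, and the X took 1.33% and 1.27% of single-sorted counts, 1.04% in double-sorted replicate 3 and 1.27% in replicate 4. The 13 elements of the Y summed to 113 and 94.9 CPM in single-sorted, 51.3 CPM in double-sorted replicate 3 and 109 CPM in replicate 4. Replicate 3 was thus the lowest on both chromosomes. Medians of the autosomes ran from -0.17 on chromosome 19 to 0.095 on chromosome 1, with -0.15 on chromosome 4. The X median lay within this range. By elements without overlap, 28.1% of the X were lower and 9.66% higher, against 27.0% and 12.35% on chromosome 4. Over all elements these shares were 21% and 17%. The Y median, at -0.45, was below those of the autosomes. Replicate 3 was also the lowest on chromosome 19, with 22067 CPM against 26807 CPM in replicate 4. The single-sorted libraries had 27375 and 26198 CPM there. The part of the pools' sex in these values was not tested.

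The nearest genes of the 2 sets differed in RNA, which was measured in rods and Nrl-/- photoreceptors only (3 libraries each) and not in green cones. Of the 538 nearest genes of the lower set with at least 1 CPM of RNA in either group, 22.9% were at least 2-fold higher in rods (CPM + 1), against 9.40% of the 10148 such genes of all elements. Of the 160 of the higher set, 35.0% were at least 2-fold higher in Nrl-/- photoreceptors, against 17.0%. Genes are not independent replicates, and these shares are a description.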

How the data were processed

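The authors mapped paired ATAC-seq reads with Bowtie2 2.2.3 (GRCm38), kept nucleosome-free fragments after SAMtools 1.3 and Picard 1.121, and name HOMER 4.8 and bedtools 2.24.0 among their tools. The deposited table holds raw counts per element, and every column was used. RNA-seq counts deposited per gene came from STAR 2.4.2a and HTSeq 0.6.1p1. Reads without a gene (41.3% to 49.2% of each library) were left out. The peak lists deposited by the authors (MACS2 2.1.0 with an irreproducible discovery rate step, 1 list per group) give a score, a fold enrichment as a ratio, and the summit offset.

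Elements kept by filterByExpr were fitted in edgeR 4.0.16 (R 4.3.3; TMM; the 4 green cone libraries; no covariate) and tested with glmTreat against a log2 fold change of 1, with Benjamini-Hochberg adjustment at 0.1. The fit was tested on simulated data with the same spread in both groups, unlike these libraries, so the simulation does not cover their unequal spread. DESeq2 1.42.0, other scalings, thinning and leaving out libraries were alternatives. Classes, sums and lists used all elements with a pseudocount of 1 CPM. Elements were assigned to the nearest of 31647 RefSeq start sites.

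Named elements are those at promoters (or the nearest within 50 kb) of 21 photoreceptor, lamina and X-linked genes and in the Nrl intron, the 10 with the lowest p per direction among elements without overlap (since none passed the test), and up to 4 with the largest difference per gene list. Members, classes and lists were chosen with earlier results of these data known. The 2-fold sets and the motifs were added after the files were seen. The study calls the replicates biological, and the labels do not say which animals each came from, so p-values measure only the spread between these libraries. Some named elements are not reported here.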

Additional observations from a re-analysis of the deposited data

How the results depend on the processing

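No paired analysis was possible because the single-sorted libraries are numbered 1 and 2 and the double-sorted ones 3 and 4. The count of elements called by edgeR was 0 in both directions under RLE scaling, processed reads as library sizes, no filter, DESeq2, a test against no change, all 8 libraries in the fit and thinning. Leaving out a library gave 0 to 58 higher and 0 to 718 lower. The higher counts came without double-sorted replicate 4. Processed reads as library sizes moved the median of all elements to 0.45, that of rod-open elements to -0.41 and that of cone-open elements to 0.85. Relative to all elements these were -0.86 and 0.40, against -0.76 and 0.35 with TMM. Rod-open medians over all alternatives stayed negative and cone-open medians positive. Taking equal numbers of peaks left 5585 single-sorted and 5554 double-sorted peaks unmatched. The 2-fold sets, 805 lower and 423 higher, became 211 and 816 with processed reads and 286 and 198 at a minimum of 10 CPM. Thinning gave 883 higher. Leaving out a library gave 1793 to 5517 lower and 1328 to 3371 higher, since fewer libraries then have to meet the rule. For the 16 gene lists, the sign of the median was kept under every alternative for rod phototransduction, cone transcription factors, horizontal cells, and Müller glia and astrocytes. With processed reads it was kept in 6 of 16. Of 45 named elements tested, RLE scaling and DESeq2 kept the sign of 45, processed reads of 41, and leaving out a library of 39 to 43. The 2-fold sets with their alternatives, thinned medians, another pseudocount and the 173 stricter rod-open elements were chosen after seeing the data. At the depth of double-sorted replicates 3 and 4, a count of 0 allows levels of up to 2.33 and 2.70 CPM (3 counts), or more where counts come in steps of 2.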
